A study of Mus musculus with 12 samples.

Results

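miR-221 and miR-222 are a pair of related microRNAs, and their mature strands were followed here in extracellular vesicles of mouse plasma after bile duct ligation. The members were the rows of the deposited count table named for both arms of the pair: mmu-miR-221-3p, mmu-miR-221-5p, mmu-miR-222-3p and mmu-miR-222-5p, written without the prefix from here on. All 4 were found among 1915 mouse names. Both 3p arms had enough counts to be tested, as 2 of 341 tested names, and both 5p arms did not pass the filter on low counts.

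The study took plasma from male C57BL/6J mice, an inbred laboratory strain, on day 8 after surgery. The 6 libraries of the BDL group came from mice whose bile duct had been ligated, a model in which blocked bile damages the liver (cholestasis). The 6 libraries of the sham group came from mice given a sham operation. The labels name no other treatment, genotype or age. A polymer reagent (ExoQuick) was used to pull down the vesicles, so RNA that co-precipitates with them is measured too, and the cells that released the RNA are not known from the label. One label names liver as the tissue while the site label names extracellular vesicles. The series text speaks of 6 animals per group but does not tie a library to an animal, so p-values measure the spread between these libraries. The number that closes each sample code, after the group name, ends in 24 or 26 and starts with a digit that 2 libraries of a group share. The meaning of both is not given. If the first digit marked an animal, each group would hold 3 animals, and p-values over 6 libraries would be too small.

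MicroRNAs are cut from a hairpin in the primary transcript, and one strand of the resulting duplex, the guide, is kept by an Argonaute protein and pairs with messenger RNAs through its seed, bases 2 to 8. The other strand, the passenger, is mostly degraded. The guides of miR-221 and miR-222 are their 3p arms. They are known to repress the cell cycle inhibitor Cdkn1b and the receptor tyrosine kinase Kit, they restrain growth factor responses in endothelium, they are abundant in platelets, and they have been described as raised in activated hepatic stellate cells, the matrix-forming cells of the injured liver.

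The mature sequences are shown because both guides carry the same seed. They come from RefSeq on GRCm38.p6, where 3 of the 4 members matched by name, and capitals mark the seed.
miR-221-3p: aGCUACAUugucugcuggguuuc
miR-222-3p: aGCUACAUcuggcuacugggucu
miR-221-5p: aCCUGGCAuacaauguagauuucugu
miR-1928: aGCUACAUugccagcuc
The guides are 23 bases each and are identical over their first 8 bases. Aligned without gaps they are identical at 11 of 23 positions, so reads of the 2 guides can be told apart by their 3′ parts. A RefSeq mature sequence was found for 1623 of the 1915 names, and a search of these for the members' seeds found 1 further name, miR-1928, with the guides' seed. It had 2 counts in all BDL libraries together and 3 in all sham libraries. Among the names with a sequence, nearly all counts with this seed thus belonged to miR-221-3p and miR-222-3p.

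The hairpins lie on the minus strand of the X chromosome with 504 bases between them. Mir221 is at chrX:19146294-19146388 and Mir222 at chrX:19146893-19146971 on GRCm38.p6, a build that need not be the one the authors used. No other gene of GENCODE M21 overlaps the span, and the nearest, the processed transcript Gm14636, is 10010 bases away. The hairpins are given to show how the arms face each other across the loop. Capitals mark miR-221-5p and miR-221-3p in Mir221 and miR-222-3p in Mir222.
Mir221: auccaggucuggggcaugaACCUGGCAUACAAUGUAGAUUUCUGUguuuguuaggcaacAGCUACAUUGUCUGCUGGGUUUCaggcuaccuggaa
Mir222: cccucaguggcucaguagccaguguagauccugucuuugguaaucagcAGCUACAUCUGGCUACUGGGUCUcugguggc

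Library totals over mouse names ran from 121003 in BDL 4 to 3506914 in BDL 1. They include miR-486a-5p and miR-486b-5p, which had equal counts in every library, so the same reads may be entered under both names. The 3 BDL libraries with code suffix 26 (BDL 2, 4 and 6) had at most 666310 counts, while the 3 with suffix 24 had at least 1635616. Sham totals ran from 659302 to 2684636. A name with 0 counts may still have had up to 3, or 24 CPM (counts scaled to a library size of 1e6) in BDL 4 and 0.624 CPM in BDL 1. Of the 341 tested names, 42.8% passed the threshold between BDL and sham in either direction (edgeR's quasi-likelihood test, adjusted p under 0.05 after Benjamini and Hochberg), 24.6% as higher and 18.2% as lower in BDL. A fall past the threshold was thus common in this comparison.

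miR-222-3p fell after bile duct ligation. In sham libraries its level was 463.2 CPM at the lowest, 683.5 at the median and 770.9 at the highest, and in BDL libraries 119.9, 280.6 and 411.3. Every BDL library was below every sham library, a separation in that direction that 9.38% of tested names showed. The lowest BDL value, in BDL 4, rested on 15 counts, with a 95% exact binomial interval of 67.1 to 198 CPM that covers counting error only. Mean levels were 661.6 ± 111.9 CPM for sham and 271.6 ± 122.3 CPM for BDL (SD, n = 6 each), and the log2 fold change of BDL over sham was -1.26 ± 0.31 (SE; adjusted p = 0.0033 by edgeR), a level 2.4-fold lower. It was the name ranked 68 of 341 by mean level, so it is a microRNA of fair abundance in these vesicles.

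miR-221-3p was lower on average after ligation but its libraries overlapped, and it did not pass the threshold. In sham libraries its level was 306.3 CPM at the lowest, 543.2 at the median and 673.0 at the highest, and in BDL libraries 151.9, 275.1 and 619.5. BDL 1 was within the upper part of the sham range, and sham 6 was below 3 of the BDL libraries, which left 3 BDL libraries below every sham library. The lowest BDL value, in BDL 4, rested on 19 counts (95% exact binomial interval 91.4 to 237 CPM). Mean levels were 537.3 ± 126.3 CPM for sham and 314.3 ± 168.9 CPM for BDL (SD, n = 6 each), and the log2 fold change was -0.76 ± 0.32 (SE; adjusted p = 0.0679 by edgeR). Its level ranked 70 of 341.

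**Figure D1:**
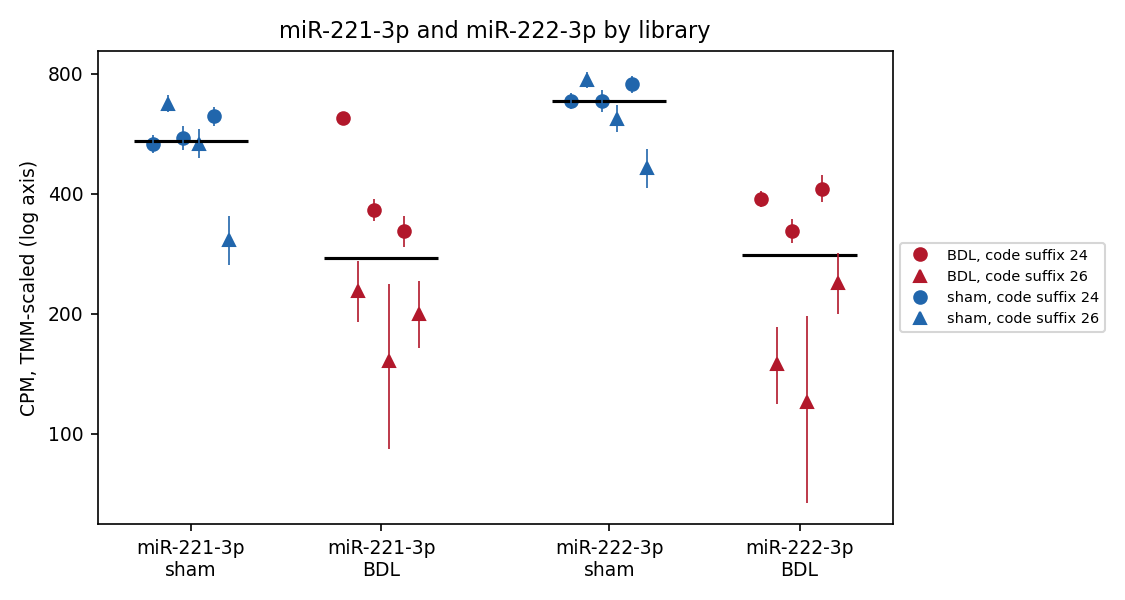
TMM-scaled CPM (vertical log axis) of miR-221-3p and miR-222-3p in each sham (blue) and BDL (red) library; circles are code suffix 24, triangles suffix 26, thin lines 95% exact binomial intervals of the count and black bars the median. All BDL libraries sit below all sham libraries for miR-222-3p, at most 411.3 against at least 463.2 CPM, while BDL 1 at 619.5 and sham 6 at 306.3 CPM make the groups overlap for miR-221-3p.

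The size of both differences was larger in libraries with code suffix 26, where the BDL libraries were also the shallow ones. In suffix 24 miR-222-3p had -0.89 ± 0.24 (SE; adjusted p = 0.0167 by edgeR, n = 3 per group), and in suffix 26 it had -1.87 ± 0.42 (adjusted p = 0.00328 by edgeR, n = 3 per group). For miR-221-3p the values were -0.36 ± 0.29 (adjusted p = 0.372 by edgeR, n = 3 per group) and -1.42 ± 0.41 (adjusted p = 0.0131 by edgeR, n = 3 per group). The share of tested names past the threshold was 31.3% in suffix 24 and 38.5% in suffix 26. The change of the BDL effect from suffix 24 to suffix 26 was -0.92 ± 0.46 for miR-222-3p and -0.98 ± 0.50 for miR-221-3p, and neither passed the threshold (interaction test in edgeR, adjusted p = 0.272 and 0.273), as 2.35% of tested names did. Without the 3 shallow BDL libraries the log2 fold change was -0.79 ± 0.25 for miR-222-3p (adjusted p = 0.0191 by edgeR) and -0.29 ± 0.28 for miR-221-3p (adjusted p = 0.438 by edgeR). Depth and suffix cannot be told apart within the BDL group.

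The call on miR-221-3p depended on single libraries and on the model, and that on miR-222-3p did not in any setting tried. Leaving out BDL 1 gave miR-221-3p a log2 fold change of -1.13 (adjusted p = 0.0056 by edgeR), and leaving out sham 6 gave -0.98 (adjusted p = 0.0296 by edgeR). With the suffix as a covariate it had -0.87 ± 0.29 (adjusted p = 0.0201 by edgeR). miR-222-3p passed the threshold in each of 24 other fits, with values between -1.87 and -0.79. A scaling by DESeq2 size factors moved the median over all tested names by -0.14 (log2), and relative to that median the values hardly changed, from -0.79 to -0.78 for miR-221-3p and from -1.30 to -1.28 for miR-222-3p.

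**Figure D2:**
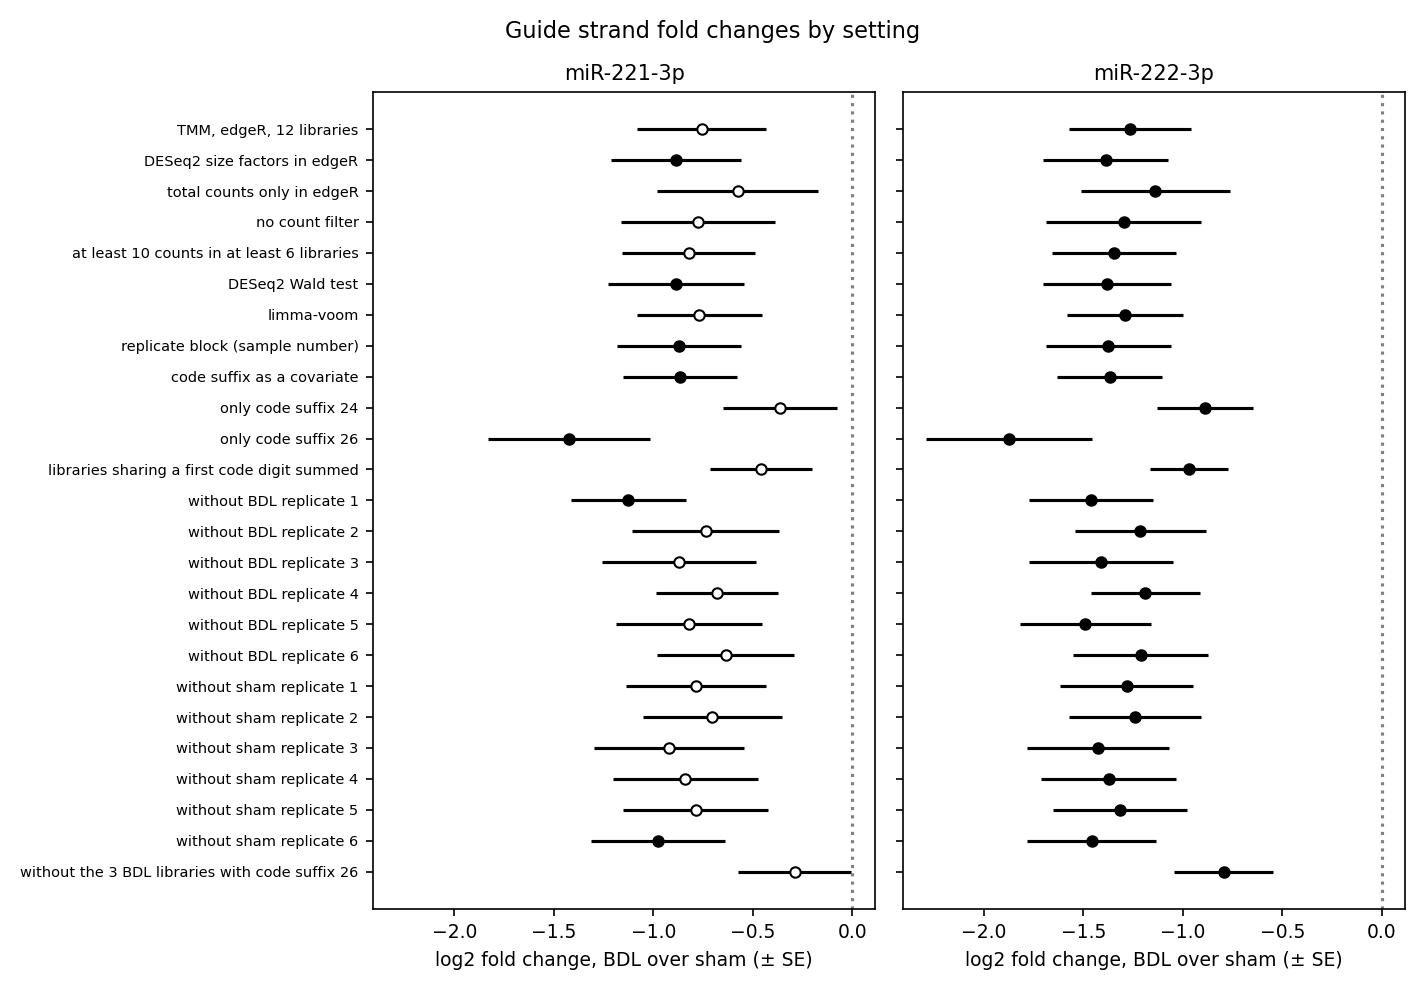
Log2 fold change of BDL over sham (horizontal axis, bars ± SE) of miR-221-3p (left) and miR-222-3p (right) under each setting (rows). Filled points passed an adjusted p of 0.05 and open points did not: every point for miR-222-3p is filled, between -1.87 and -0.79, and miR-221-3p is filled in 7 of 25.

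Since both guides come from neighbouring hairpins, their ratio within a library was compared as a measure that needs no scaling between libraries. Counts of 2 different sequences also depend on how each is captured in the library, so the ratio is read only between libraries. In sham libraries the count ratio of miR-221-3p to miR-222-3p was 0.661 at the lowest, 0.819 at the median and 0.873 at the highest, and no library had a ratio above 1. In BDL libraries it was 0.783, 1.2 and 1.6, and 4 of 6 libraries had a ratio above 1. Mean log2 ratios were -0.32 ± 0.15 for sham and 0.20 ± 0.43 for BDL (SD, n = 6 each), a difference of 0.52 or 1.43-fold. The exact permutation test over libraries gave p = 0.0325 (two-sided), and adjusted over the 4 single values tested it was 0.0779, so the shift did not pass the correction. The difference was 0.48 in suffix 24 and 0.56 in suffix 26, where 3 against 3 libraries cannot give a p below 0.1 and gave 0.3 in each (exact permutation test).

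The BDL libraries that share a first code digit had nearly the same ratio, a pattern noticed after the values were seen and not tested. BDL 1 and 2, with first digit 1, had 1.6 and 1.53. BDL 3 and 4, with first digit 2, had 1.13 and 1.27. BDL 5 and 6, with first digit 3, had 0.783 and 0.838, inside the sham range. The members of each of these pairs differed in depth and suffix, while the counting intervals of their ratios overlapped. Intervals of the shallow libraries also overlapped with some across digits, so this overlap does not set the pairs apart. For miR-221-3p as a percent of both guides, the interval of BDL 4 was 37.9 to 72.8% and held the value of every library. That of BDL 2 (53.5 to 67.1%) overlapped that of BDL 3 (50.7 to 55.4%). Among the deeper BDL libraries, with suffix 24, the intervals did not overlap. They were 60.1 to 62.8% in BDL 1, 50.7 to 55.4% in BDL 3 and 41.0 to 46.8% in BDL 5. In sham the pairs had 0.781 and 0.873 (digit 4), 0.808 and 0.866 (digit 5) and 0.831 and 0.661 (digit 6). With the counts of libraries sharing a digit summed, leaving 3 against 3, the log2 fold change was -0.97 ± 0.20 for miR-222-3p (adjusted p = 0.00328 by edgeR) and -0.46 ± 0.26 for miR-221-3p (adjusted p = 0.174 by edgeR), and the difference in log2 ratio was 0.46 (exact permutation p = 0.4, where 0.1 is the smallest possible).

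**Figure D3:**
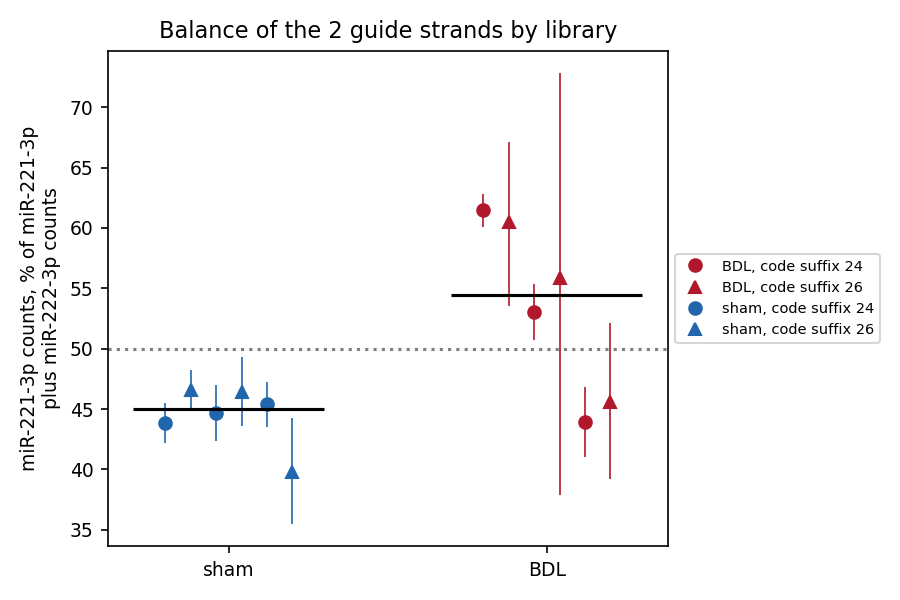
Counts of miR-221-3p as a percent of the counts of both guides (vertical axis) in each library of the sham and BDL groups, in order of library number from left to right; thin lines are 95% exact binomial intervals, black bars medians and the dotted line equal counts. Sham libraries lie below the line, and BDL 1 to 4 above it, with BDL 5 and 6 below it.

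The guides varied together from library to library. Within the sham group the log2 CPM values of miR-221-3p and miR-222-3p had a Pearson's r of 0.98 (exact permutation p = 0.00417, adjusted 0.0167 over 4 correlations; n = 6) and a Spearman's rho of 0.943 (exact permutation p = 0.0167, adjusted 0.0333). Without sham 2 and sham 6, the 2 libraries farthest from the median of miR-221-3p, r was 0.846. Within BDL r was 0.826 (exact permutation p = 0.0444, adjusted 0.0593; n = 6), rho was 0.771 (exact permutation p = 0.103) and r without BDL 1 and BDL 4 was 0.715. In BDL the libraries with suffix 26, also the shallow ones, were the lowest for both guides. They had at most 228.2 CPM of miR-221-3p and 238.6 of miR-222-3p, against at least 322.0 and 322.5 in suffix 24. The BDL correlations include this split, and correlation within a suffix was not tested. Both values of a library share its scaling, which adds to these correlations.

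The pair was then set beside other neighbouring hairpins, each represented by its most abundant tested arm. Left out were 48 hairpins whose most abundant arm is also found in another hairpin and 2 whose more abundant arm had no RefSeq sequence, which left 29 pairs on the same strand with at most 10000 bases between them. After the group means were subtracted, r over 12 libraries was 0.841 for miR-221-3p and miR-222-3p, against a median of 0.496 over the 29 pairs, and 6 pairs had a higher r. The log2 ratio of the 2 guides moved by 0.52 between the groups, against a median of 0.841 in size over the pairs, and 21 pairs had a larger shift. These figures describe the pairs, which share libraries, the split of BDL by depth and suffix, and in part hairpins.

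**Figure D4:**
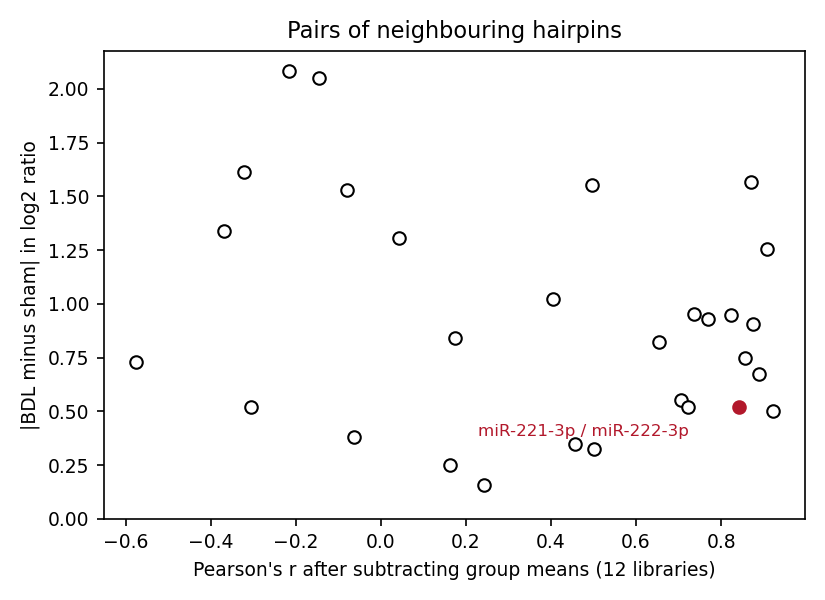
Each point is 1 of 29 pairs of neighbouring hairpins: Pearson's r of log2 CPM over 12 libraries after subtracting group means (horizontal axis) against the size of the BDL minus sham difference in log2 ratio (vertical axis). The red point, miR-221-3p with miR-222-3p, has an r of 0.841 and a shift of 0.52, to the right of the median r of 0.496 and below the median shift of 0.841.

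The names most like the guides across libraries were not their own partner. By the correlation of log2 CPM after subtracting group means (12 libraries, which share scaling and depth), miR-221-3p was closest to miR-29a-3p (r = 0.973), a microRNA that represses collagens, then to miR-30e-5p (0.946) and miR-27b-3p (0.932), and miR-222-3p ranked 21 of 340. The median r of miR-221-3p over all names was 0.237. miR-222-3p was closest to miR-25-3p (0.946), of the miR-106b/25 cluster, then to miR-30e-5p (0.92) and miR-421-3p (0.918), with miR-221-3p at rank 19. Of these 5 names, 3 fell after ligation, beside 18.2% of all tested names. The 5 were picked for their likeness to the guides, so their count is not read further. Those that fell were miR-30e-5p, by 1.64 ± 0.42 (SE; adjusted p = 0.00466), miR-421-3p, by 1.18 ± 0.42 (adjusted p = 0.0332), and miR-27b-3p, by 0.73 ± 0.26 (adjusted p = 0.0341, all by edgeR). Values for the other two were 0.46 ± 0.38 for miR-29a-3p (adjusted p = 0.361) and -0.63 ± 0.35 for miR-25-3p (adjusted p = 0.16, both by edgeR), neither past the threshold.

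The passenger strands were rare in every group. miR-221-5p had 64 counts in BDL and 65 in sham, and miR-222-5p had 8 and 28. Of the summed counts of both arms, miR-221-5p was 1.34% in BDL (95% exact binomial interval 1.03 to 1.71, counting error only) and 1.07% in sham (0.83 to 1.37). BDL 1 gave 2977 of the 4711 BDL counts of miR-221-3p but 11 of the 64 of miR-221-5p, and without BDL 1 the BDL share was 2.97% (2.23 to 3.86). The median over libraries was 3.46% in BDL and 0.744% in sham. miR-222-5p was 0.222% in BDL (0.0957 to 0.436) and 0.383% in sham (0.254 to 0.553). Without BDL 1 its BDL share was 0.402% (0.162 to 0.826), so the lower pooled share in BDL rested on that library. The median over libraries was 0.0268% in BDL and 0.384% in sham, on few counts. Over both groups the 5p arm was 1.19% of miR-221 and 0.33% of miR-222 counts, and the median share of the rarer arm was 1.49% over 116 hairpins with at least 1000 counts in both arms together. A rare passenger strand was thus common among these hairpins.

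By library, miR-221-5p ranged from 2.29 to 33 CPM in BDL (median 8.49) and from 0 to 15.6 in sham (median 4.31). BDL 6 was the highest with 18 counts, 14.2% of its miR-221 counts, and sham 6 had 0 counts, which allows up to 4.57 CPM. miR-222-5p ranged from 0 to 3.19 CPM in BDL (median 0.104) and from 0 to 7.62 in sham (median 2.75). It was at 0 in BDL 2, 4 and 6 and in sham 4, and the allowance in BDL 4 was above every measured value. The mean log2 ratio of 5p to 3p counts, with 0.5 added to each, for miR-221 was -6.96 ± 1.07 among sham and -5.12 ± 2.03 among BDL libraries (SD over 6 libraries each; p = 0.0779 by exact permutation, adjusted 0.104), and -8.18 ± 1.75 and -7.66 ± 1.77 for miR-222 (exact permutation p = 0.597, adjusted 0.597). For miR-221 the difference was 4.07 in suffix 26 and -0.39 in suffix 24, and without BDL 1 it was 2.42 (exact permutation p = 0.0216, adjusted 0.0433). Leaving out any other single library gave 1.33 to 2.18 and did not pass the threshold (exact permutation, adjusted p from 0.0866 to 0.219). As a percent of both arms, with nothing added, miR-221-5p in suffix 26 was 4.51, 5 and 14.2% in BDL 2, 4 and 6 and 0.66, 0.714 and 0% in sham 2, 4 and 6. Over all libraries the mean percent differed by 3.63 percentage points (exact permutation p = 0.0693, adjusted 0.0924).

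The 4 members together took little of each library. Their summed share was 0.119 ± 0.0302% of sham counts and 0.0655 ± 0.0415% of BDL counts (SD over 6 libraries each; p = 0.039 by exact permutation, adjusted 0.0779), with 0.0289 to 0.138% in BDL and 0.0774 to 0.149% in sham libraries. A share of all counts also moves with the most abundant names. Among these are miR-486a-5p and miR-486b-5p, whose equal counts may be the same reads entered under both names. Without the arms of miR-486a, miR-486b and miR-122 in the total, the share was 0.521 ± 0.121% for sham and 0.235 ± 0.0828% for BDL (SD over 6 libraries each; p = 0.00649 by exact permutation, adjusted 0.026). Without BDL 1 the difference in the share of all counts was -0.0681 percentage points (exact permutation p = 0.0108, adjusted 0.0433), and without the 3 shallow BDL libraries it was -0.0221 (exact permutation p = 0.298).

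Lists of other microRNAs linked to cells that carry miR-221 and miR-222 are read against all tested names, of which 24.6% rose and 18.2% fell. In a list of platelet names (10 besides the members, all tested), 3 rose, 3 fell and 4 did not pass the threshold, with a median log2 fold change of -0.64 against 0.03 over all tested names. miR-126a-3p, the microRNA of endothelium and platelets, fell by 1.79 ± 0.40 (adjusted p = 0.00189) and miR-24-3p rose by 1.06 ± 0.25 (adjusted p = 0.0029), while miR-25-3p is given above. Of 14 endothelial names 2 rose, 4 fell and 8 did not pass, with a median of -0.20. Among these, miR-92a-3p had -0.56 ± 0.24 (adjusted p = 0.0679) and miR-10a-5p 0.11 ± 0.27 (adjusted p = 0.779). miR-126a-3p was not past the threshold in suffix 24 alone (-0.68, adjusted p = 0.0549), nor miR-24-3p in suffix 26 alone (0.71, adjusted p = 0.103, all by edgeR). In bulk vesicle RNA, fewer vesicles from a cell type and less of an RNA per vesicle cannot be told apart.

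Of 14 tested names tied to liver fibrosis and stellate cells, besides the members, 2 rose, 3 fell and 9 did not pass, with a median of -0.45. The 3 falls are near the 18.2% of all tested names. miR-21a-5p, a microRNA of wound and scar tissue, stood at 0.00 ± 0.30 (adjusted p = 1), miR-125b-5p had -0.55 ± 0.28 (adjusted p = 0.127), and miR-143-3p, of smooth muscle and other mesenchymal cells, fell by 1.13 ± 0.25 (adjusted p = 0.00189, all by edgeR). In a list linked to the cell cycle, 1 of 11 was higher, 4 were lower and 6 did not pass, with a median of -0.63. Its 3 most abundant names, miR-148a-3p (-0.32 ± 0.29, adjusted p = 0.406), miR-92a-3p and miR-25-3p, did not pass the threshold.

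**Figure D5:**
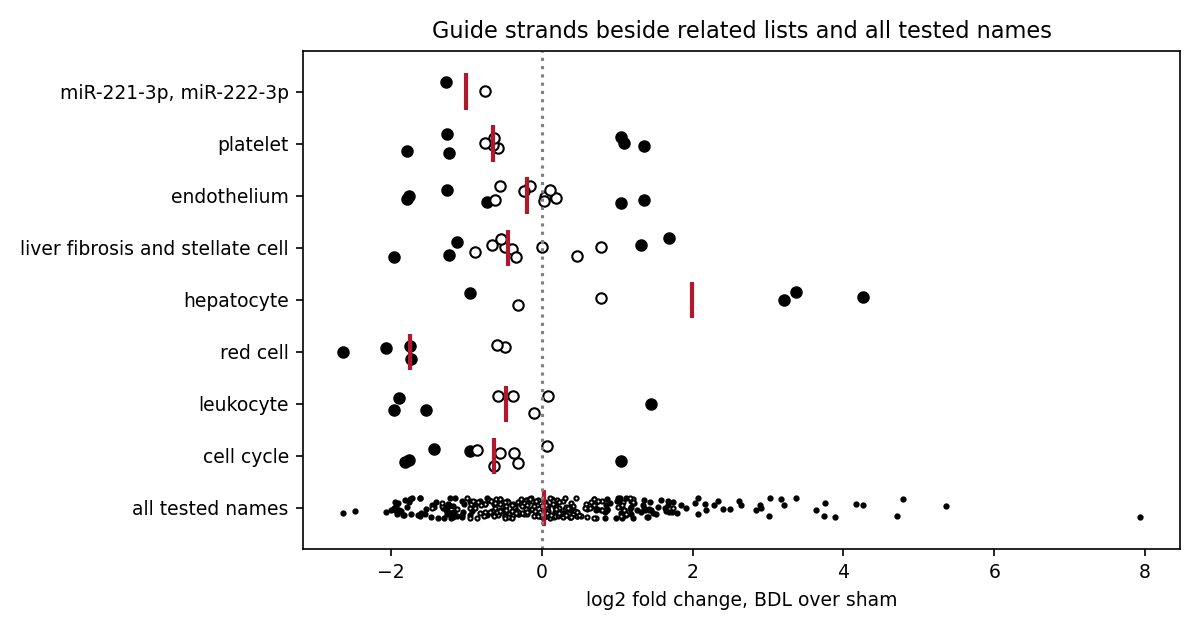
Log2 fold change of BDL over sham (horizontal axis) for the 2 guides, the other tested names of each list and all 341 tested names (rows); filled points passed an adjusted p of 0.05, open points did not, and red bars are medians. The guides lie left of 0, at -1.26 (filled) and -0.76 (open), and each list but the red cell one holds filled points on both sides.

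The summed shares of hepatocyte and red cell markers did not overlap between the groups in the same libraries, while those of leukocyte markers did. Among single tested names, judged by scaled level, 21.1% did not overlap in either direction. Shares of all counts also depend on each other, since a rise of an abundant name lowers the shares of the rest. Hepatocyte names took 8.08 to 35.7% of BDL and 1.88 to 5.72% of sham counts, and of 6 tested 3 rose, 1 fell and 2 did not pass. miR-122-5p rose by 4.26 ± 0.55 (adjusted p = 3.81e-05) and miR-192-5p by 3.37 ± 0.34 (adjusted p = 3.13e-06). miR-148a-3p, also among the 3 most abundant tested hepatocyte names, had -0.32 ± 0.29 and did not pass the threshold (adjusted p = 0.406 by edgeR). Of the 10 names of that list, 1 had no count in any library. Red cell names took 17.1 to 36.1% of BDL and 37.3 to 41.2% of sham counts, with 0 of 6 higher, 4 lower and 2 without a call. The list holds miR-486a-5p and not miR-486b-5p, which had equal counts in all 12 libraries. With both names the share was 33.8 to 71.9% of BDL and 73.5 to 81.3% of sham counts. Whether the same reads were entered under both names was not tested. If they were, every library total holds them under each name, and shares of all counts are too low for other names. The size of this would differ between the groups, since each name had a mean of 278640 CPM in BDL and 392088 CPM in sham libraries. miR-451a, of red cells, fell by 2.63 ± 0.33 (adjusted p = 3.51e-05) and miR-486a-3p by 1.74 ± 0.24 (adjusted p = 6.53e-05), and miR-486a-5p had -0.49 ± 0.28 (adjusted p = 0.162). For miR-486a-5p, the most abundant name of the red cell list, the groups overlapped in scaled level. Leukocyte names took 0.161 to 0.867% of BDL and 0.426 to 0.914% of sham counts. Of 8 such names 1 rose, 3 fell and 4 did not pass, with miR-142a-5p at -1.90 ± 0.36 (adjusted p = 5.98e-04), miR-146a-5p at 0.09 ± 0.35 (adjusted p = 0.87) and miR-181a-5p at -0.38 ± 0.36 (adjusted p = 0.426, all by edgeR). Their part in the fall of miR-222-3p was not tested.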

How the data were processed

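Small RNA was sequenced from plasma vesicles of 6 BDL and 6 sham libraries. Per the labels' protocols, NEBNext small RNA libraries were made with 15 PCR cycles (input 40 ng), and no molecular identifiers are named. The authors deposited whole-number counts per microRNA name, with no normalisation that the values show. The submitters' processing notes name cutadapt and STAR; versions, genome build and annotation: not given in the sources used here.

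Left out were 67 names of other species. Counts were tested with edgeR 4.0.16 (quasi-likelihood F test, TMM scaling, filterByExpr by group) in R 4.3.3, with Benjamini-Hochberg adjustment over 341 names and a threshold of 0.05. An SE is the fold change (log2) over the root of F. Log2 CPM values have a prior count of 2. The biological coefficient of variation was 45.5%. Ratios and shares were tested by exact permutation, two-sided (924 arrangements, smallest p 0.00216) in Python 3.11.15 with numpy 2.4.6. Exact binomial intervals came from scipy 1.17.1. The edgeR step was run on simulated counts of independent libraries, with a lower coefficient of variation than these data and no suffix or digit structure. That run checks the code and not the calls made here.

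The members and lists were chosen with earlier results of these data known. Named microRNAs are the 4 members, names sharing a member's seed, the 3 most abundant tested names of each list, and the 3 names most correlated with each guide. Alternatives were other scalings, filters and tools (DESeq2 1.42.0, limma 3.58.1), a replicate block, the code suffix, summed code digits and each library left out; fits without the shallow BDL libraries and arm percentages were added after seeing the data. Sequences are from RefSeq (GRCm38.p6).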

Additional observations from a re-analysis of the deposited data

Results flagged for a closer look

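Of 16 groups of 6 values (log2 CPM of each member, the 3 log2 ratios and the summed share, in each group), 1 contained a library that stood far apart; by chance about 1 in 20 would. In sham 6 the level of miR-221-3p was 8.26 on the log2 CPM scale, below the other 5 sham libraries by a gap of 0.704 of the group's range. This library had the lowest sham total, 659302 counts, and also the lowest sham value of miR-222-3p and the lowest ratio of the 2 guides. The part of depth in this was not tested.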

How the results depend on the processing

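miR-222-3p kept its direction and its call in all 24 other fits, and 7 of 24 fits brought miR-221-3p past the threshold. These were DESeq2 size factors (-0.89, adjusted p = 0.0365), the DESeq2 test (-0.88, adjusted p = 0.0234), the replicate block by sample number (-0.87, adjusted p = 0.0381), the suffix as a covariate (-0.87), suffix 26 alone (-1.42), and the fits without BDL 1 or sham 6. Leaving out 1 library at a time gave -1.13 to -0.64 for miR-221-3p, -1.49 to -1.19 for miR-222-3p, 1.33 to 2.42 for the arm ratio of miR-221, -0.0173 to 1.05 for that of miR-222, 0.42 to 0.63 for the ratio of the guides and -0.0681 to -0.0462 percentage points for the summed share. The ratio of the guides passed the adjusted threshold without BDL 5 (0.63, adjusted p = 0.026) or BDL 6 (0.61, adjusted p = 0.0433), and the summed share without BDL 1 and without the arms of miR-486 and miR-122 (-0.286). The arm ratio of miR-221 passed that threshold only without BDL 1 (2.42). The arm ratio reversed in suffix 24 for miR-221 (-0.39) and miR-222 (-0.35), and for miR-222 also with digits summed (-0.70), as a percent of both arms (-0.351) and without BDL 4 (-0.0173). The cause of these changes was not tested. Sample numbers are shared by the groups, and the sample titles do not say that they pair libraries. Correlations of same-numbered libraries ran from -0.0886 to 0.311, and 2 of 6 libraries matched their own number best, which does not settle the question. The replicate block left 133 names past the threshold against 146. Other settings gave 102 to 176 names. Depth limits both passenger strands and every value of BDL 4.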
